A study of Mus musculus with 6 samples.

Results

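The Gimap genes encode GTPases of immunity-associated proteins, a family that lies side by side on mouse chromosome 6. The 8 genes described here are Gimap1, Gimap3, Gimap4, Gimap5, Gimap6, Gimap7, Gimap8 and Gimap9, out of 19937 genes measured. They were chosen by name, though with earlier results of these data known. Each was read from the probe set that lists its symbol alone, of which every member had exactly 1. Their transcripts were compared between 3 arrays of CD4- CD8- double-negative (DN) thymocytes of Rag2-/- mice (labelled RAG-/- and control) and 3 arrays of wild-type DN thymocytes carrying the homeobox oncogene TLX3 (labelled DNTLX3+ and tumoral).

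Rag2 is a subunit of the recombinase that builds antigen receptor genes, so thymocytes without it halt as DN cells. The protocol shared by all samples names C57Bl/6 mice aged 4 to 6 weeks, with CD4- and CD8-bearing cells depleted on beads and DN cells then sorted by flow cytometry. The wild-type cells were infected with pMSCV-GFP-TLX3, a retrovirus that also carries GFP. They then grew for 4 to 5 weeks on irradiated OP9-DL1 cells, a stromal line that presents a Notch ligand, in medium with interleukin 7 and Flt3 ligand. The labels do not make clear whether the RAG-/- cells were cultured, and arrays of cells given the GFP virus alone were not analysed here. Rag2 genotype, virus and possibly culture therefore differ together between the groups and cannot be told apart. Nothing in the labels says that replicates came from separate animals or cultures, and the spread behind each p-value is that of these samples and could be technical.

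Gimap proteins share a GTP-binding domain and are found mostly in lymphocytes, where several of them set how long a cell survives. Gimap5 and Gimap1 are needed to keep mature lymphocytes alive, and mice without Gimap5 lose T cells and NK cells. Gimap3 is a close relative of Gimap5, and both have been studied with BCL2 proteins. Gimap4 hastens the death of T cells, and Gimap6 binds Gabarapl2, a protein of autophagy.

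The stretches of DNA before the start sites of 4 members are shown because these genes gave different results: Gimap4 and Gimap3 were lower in DNTLX3+ arrays, Gimap7 was slightly higher, and Gimap5 lies next to Gimap3. Each is the 250 bases before the RefSeq start in assembly GRCm38.p6, read 5′ to 3′ on the strand of the gene. The window of Gimap4 is chr6:48684328-48684577 on the plus strand, that of Gimap3 chr6:48770852-48771101 on the minus strand, that of Gimap7 chr6:48718371-48718620 on the plus strand and that of Gimap5 chr6:48745947-48746196 on the plus strand. Capitals mark matches to the short motifs of T-cell factor families: GGGTGG or CCACCC for KLF, TGTGGT or ACCACA for RUNX, and ACTTCC or GGAAGT for ETS factors.
Gimap4: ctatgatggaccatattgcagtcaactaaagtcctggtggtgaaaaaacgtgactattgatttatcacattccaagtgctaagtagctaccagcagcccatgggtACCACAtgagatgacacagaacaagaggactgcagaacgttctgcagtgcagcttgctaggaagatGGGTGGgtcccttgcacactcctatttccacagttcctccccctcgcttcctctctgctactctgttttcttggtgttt
Gimap3: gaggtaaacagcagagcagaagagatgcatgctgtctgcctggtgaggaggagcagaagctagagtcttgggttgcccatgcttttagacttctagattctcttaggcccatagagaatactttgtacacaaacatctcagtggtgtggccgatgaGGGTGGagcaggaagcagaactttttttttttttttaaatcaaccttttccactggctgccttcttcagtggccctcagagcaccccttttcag
Gimap7: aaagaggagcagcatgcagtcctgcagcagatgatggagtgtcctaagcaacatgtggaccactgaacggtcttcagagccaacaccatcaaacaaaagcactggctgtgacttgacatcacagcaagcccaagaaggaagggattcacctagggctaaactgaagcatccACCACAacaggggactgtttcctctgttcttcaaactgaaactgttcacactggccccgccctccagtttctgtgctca
Gimap5: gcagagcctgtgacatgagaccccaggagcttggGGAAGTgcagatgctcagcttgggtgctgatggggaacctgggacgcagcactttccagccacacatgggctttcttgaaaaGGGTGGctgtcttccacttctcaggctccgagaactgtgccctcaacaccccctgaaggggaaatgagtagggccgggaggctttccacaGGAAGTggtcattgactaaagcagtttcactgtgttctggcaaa

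Matches were counted on both strands, and no match overlapped another in these windows. The KLF letters were in the windows of 5 of the 8 members (Gimap8, Gimap9, Gimap4, Gimap5 and Gimap3) and in 28.1% of all 32851 promoter windows of the same length. Gimap8 has a pair of listed start sites, and its match was in the window of the second. The RUNX letters were in 3 members (Gimap4, Gimap7 and Gimap1) and in 14.0% of windows, and the ETS letters in 2 members (Gimap6 and Gimap5) and in 19.7%. AGATAA for GATA factors, TGGGAA for RBPJ, TAATTG for homeodomain proteins and CAGCTG for E proteins were in no member's window, against 9.99%, 21.6%, 7.17% and 13.0% of all windows. The KLF letters began 79 bases before the start of Gimap4, 94 before that of Gimap3 and 134 before that of Gimap5. Letters in a window are a description and not a measured binding site.

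The values are log2 RMA values as deposited, and differences are DNTLX3+ minus RAG-/- throughout. A gene was called at a limma adjusted p under 0.05 (Benjamini-Hochberg over 28192 probe sets) with a difference of at least 1 in either direction. By this rule 2 of the 8 Gimap genes, Gimap3 and Gimap4, were lower in the DNTLX3+ arrays, none was higher and 6 were not called. Over all genes, 5.07% were called lower and 1.44% higher, so 1298 of 19937 (6.51%) were called in either direction. The median of the 8 members was -0.17, against 0.11 over all genes. On the adjusted p alone, 3 members passed (Gimap3 and Gimap4 lower, Gimap7 higher), where 42.4% of all genes did so. The same 3 members were those whose groups did not overlap. Over all genes, the DNTLX3+ arrays lay wholly below the RAG-/- arrays for 26.0% and wholly above for 32.3%, 58.3% together.

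**Figure D1:**
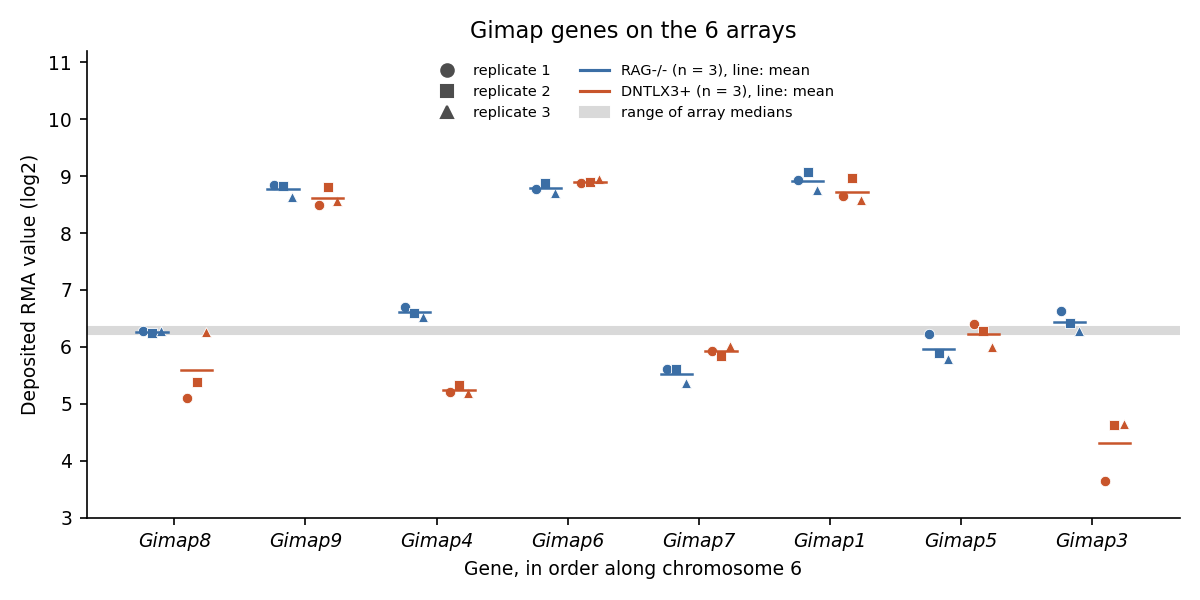
Deposited log2 values (vertical axis) of the 8 Gimap genes in their order along chromosome 6 (horizontal axis), with 1 symbol per array, a line at each mean of 3 arrays (blue RAG-/-, orange DNTLX3+) and a grey band for the range of array medians, 6.22 to 6.35. Gimap4 and Gimap3 have no DNTLX3+ array within the RAG-/- range, Gimap9, Gimap6 and Gimap1 lie above the band in both groups, and Gimap8 is spread out on the DNTLX3+ arrays alone.

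Gimap3 fell between the groups. Its values were 6.63, 6.42 and 6.27 in RAG-/- replicates 1 to 3 and 3.64, 4.63 and 4.64 in DNTLX3+ replicates 1 to 3. Every DNTLX3+ array lay below every RAG-/- array, and replicate 1 was the lowest. The means were 6.44 ± 0.18 and 4.31 ± 0.57 (SD, n = 3 in each group), and the difference was -2.14 ± 0.26 (SE; limma adjusted p = 0.000508). Of all 19937 genes, 79 had a difference as low, Gimap3 among them. Without DNTLX3+ replicate 1 the difference was -1.81 and still called. The DNTLX3+ mean was below the array medians, where a signal may be background, so no fold is given and the true size is not known.

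Gimap4 was the other member that fell. RAG-/- replicates 1 to 3 stood at 6.70, 6.59 and 6.53, and DNTLX3+ replicates 1 to 3 at 5.21, 5.32 and 5.19. The arrays within each group were close together and the groups did not overlap. The difference was -1.37 ± 0.12 (SE; limma adjusted p = 0.00013), from 6.61 ± 0.09 to 5.24 ± 0.07 (SD, n = 3), the latter again under the array medians. Of all genes, 393 had a difference as low. When the minimum difference of 1 was put into the test itself (limma treat), neither fall was called: the adjusted p was 0.374 for Gimap4 and 0.0784 for Gimap3. In such bulk RNA, fewer cells that carry a transcript and less of it per cell cannot be told apart.

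Gimap5, the close relative that lies beside Gimap3, was not called, and its mean was below the array medians in both groups, so a fall might not be visible in it. It was at 6.23, 5.90 and 5.79 on the RAG-/- arrays and at 6.40, 6.29 and 5.99 on the DNTLX3+ arrays, so the groups overlapped. The difference was 0.25 with a 95% interval from -0.11 to 0.62 (limma adjusted p = 0.227). Array weights put it at 0.13, cyclic loess at 0.11. The sequences of the probes were not used here, so whether transcripts of these relatives bind each other's probes was not tested.

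Gimap1, which lies next to Gimap5 on its other side, stood high in both groups. Its values were 8.93, 9.07 and 8.75 on the RAG-/- arrays and 8.65, 8.96 and 8.57 on the DNTLX3+ arrays, with the groups overlapping. The difference was -0.19 (95% interval -0.53 to 0.15; limma adjusted p = 0.322), and it turned to 0.14 when arrays were given equal medians and interquartile ranges.

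Gimap6 was not called either. It was at 8.78, 8.87 and 8.70 in RAG-/- replicates 1 to 3 and at 8.87, 8.89 and 8.94 in DNTLX3+ replicates 1 to 3. The difference was 0.12 (95% interval -0.15 to 0.39; limma adjusted p = 0.435), and ran from 0.06 to 0.46 under the 4 rescalings, the latter with an adjusted p of 0.0201 at equal medians and interquartile ranges. Gimap9 lay at 8.85, 8.83 and 8.64 on the RAG-/- arrays and at 8.49, 8.81 and 8.57 on the DNTLX3+ arrays. Its difference was -0.15 (95% interval -0.46 to 0.16; limma adjusted p = 0.383), and its sign turned under 3 of 4 rescalings (0.04, 0.02 and 0.16). Gimap1, Gimap6 and Gimap9 were the 3 members above the array medians in both groups. As deposited, their 95% intervals left out a change of 1 log2 unit either way.

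Gimap7 moved upward by less than the minimum difference. It was at 5.62, 5.61 and 5.37 on the RAG-/- arrays and at 5.93, 5.85 and 6.02 on the DNTLX3+ arrays, all below the array medians. The groups did not overlap, and the difference was 0.40 (95% interval 0.11 to 0.69; limma adjusted p = 0.0334). It lay between 0.19 and 0.34 under the 4 rescalings of the arrays and none of them kept the adjusted p under 0.05, with 0.0745 the lowest. It was also over 0.05 without any 1 of the RAG-/- arrays or without DNTLX3+ replicate 3, and was 0.0673 with the replicate number as a block. GIMAP7 is known to stimulate GTP hydrolysis by other members of the family.

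Gimap8, the largest member, with several GTP-binding domains, was the most uneven. RAG-/- replicates 1 to 3 were at 6.28, 6.24 and 6.29, an SD of 0.03, while DNTLX3+ replicates 1 to 3 were at 5.10, 5.39 and 6.26, an SD of 0.60. DNTLX3+ replicates 1 and 2 were lower than every RAG-/- array, and replicate 3 lay within the RAG-/- range. The difference was -0.68 (95% interval -1.26 to -0.10; limma adjusted p = 0.0584) and was not called. Without DNTLX3+ replicate 3 it was -1.02 with an adjusted p of 0.00183 and was called, which makes 3 of 8 members lower. Without DNTLX3+ replicate 1 it was -0.44 (limma adjusted p = 0.155), and with array weights -0.39 (limma adjusted p = 0.140), not called in either. The limma adjusted p was under 0.05 at equal medians (0.0433) and after cyclic loess (0.0408). The same held with probe sets under the 25th percentile left out (0.0468) and with the replicate number as a block (0.0340). Gimap8 was not called in these, as its difference was under 1 in size. Its adjusted p was over 0.05 in the other rescalings (0.0701 and 0.0755). The sign was negative in all 17 alternatives that gave a value for Gimap8. Several of them change only the spread, the probe sets kept or the rule, so they repeat -0.68 and could not turn the sign.

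The members that fell were not adjacent. From Gimap8 at one end to Gimap3 at the other, the order along chromosome 6 is Gimap8, Gimap9, Gimap4, Gimap6, Gimap7, Gimap1, Gimap5 and Gimap3. Gimap4 is the third and Gimap3 the last, and the 4 genes between them had differences from -0.19 to 0.40. Gimap3 and Gimap6 are read from the minus strand and the other 6 from the plus strand, so the falls include a gene of each strand.

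**Figure D2:**
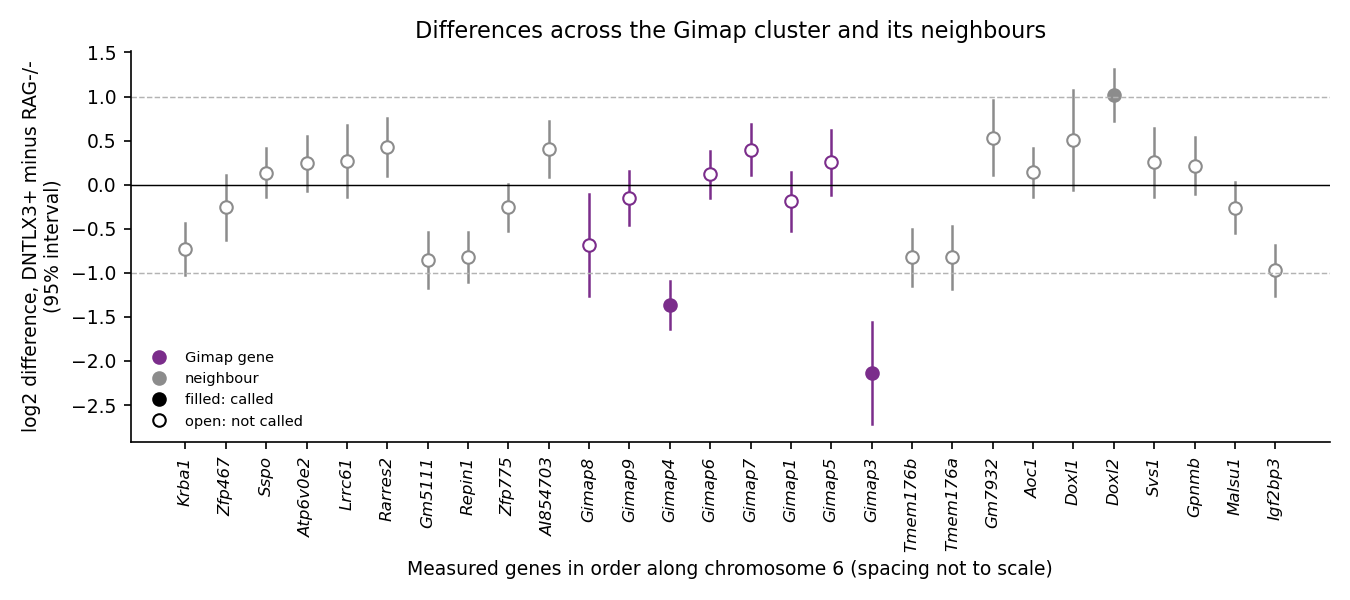
Log2 differences (vertical axis) with 95% intervals for the 8 Gimap genes (purple) and the 10 nearest measured genes on each side (grey), in order along chromosome 6 and not to scale; filled circles were called. Gimap4 (-1.37) and Gimap3 (-2.14) stand below the dashed line at -1, with the 4 genes between them at -0.19 to 0.40. None of the 20 neighbours was called lower.

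Of the 20 nearest measured genes outside the cluster, none was called lower and 1 was called higher. The 1 was Doxl2, at 4.64 and 5.66 and so below the array medians in both groups (difference 1.02, lost in each of the 4 rescalings, where it was 0.75 to 0.96, and without RAG-/- replicate 1 or 2 or DNTLX3+ replicate 1 or 3, where it was 0.97 to 0.99). On the adjusted p alone, 6 of the 20 neighbours were lower and 4 higher, where 19.4% of all genes were lower and 23.0% higher. Tmem176b and Tmem176a, membrane proteins encoded next to Gimap3, each stood at -0.82 (limma adjusted p = 0.00258 and 0.00379) and thus failed the minimum difference. At the Gimap8 end, AI854703 stood at 0.41 and Zfp775 at -0.26. The median of the 20 was 0.14, close to the 0.11 of all genes.

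Arrays of the same group also differed from each other. In the RAG-/- group, 7 of the 8 members were lowest in replicate 3, the exception being Gimap8, and 40.8% of all genes were lowest there. In the same array the summed signal of 16 thymic epithelial markers was 15887, against 9524 and 8708 in replicates 1 and 2, and that of 23 NK markers was 4662, against 5171 and 5373. In the DNTLX3+ group, 4 members were lowest in replicate 1, 1 in replicate 2 and 3 in replicate 3, against 41.2%, 31.0% and 27.8% of all genes. The part of these other transcripts in the members' values was not tested.

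Signal range differed between the groups: the interquartile range of an array was 3.09 to 3.18 log2 units on the RAG-/- arrays and 2.47, 2.85 and 2.75 on DNTLX3+ replicates 1, 2 and 3. The values were therefore rescaled in 4 ways. Cyclic loess moved the median difference of all probe sets by -0.13, from 0.13 to 0.00. Gimap3 lay between -2.39 and -2.20 and Gimap4 between -1.55 and -1.43 under the 4 rescalings, both called each time and both lower than as deposited. Relative to the median of all probe sets, Gimap3 was at -2.27 as deposited and at -2.40 after cyclic loess.

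**Figure D3:**
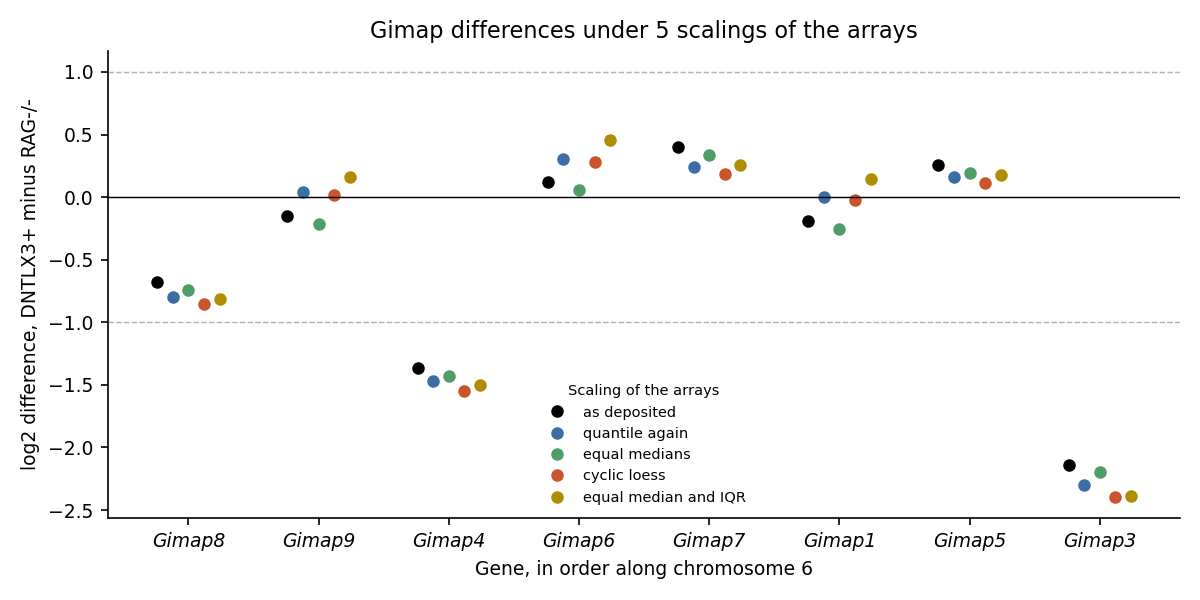
Log2 differences (vertical axis) of the 8 Gimap genes (horizontal axis) from the values as deposited and after 4 rescalings of the arrays, with dashed lines at the minimum difference of 1. Gimap3 and Gimap4 stay below -1 in each setting, whereas Gimap9 and Gimap1 lie on both sides of 0.

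Markers of other cells moved with the groups, and Gimap genes are known from several of those cells. In the list of NK and cytotoxic genes 14 of 23 fell, with 9 not called and none called higher. On the limma adjusted p alone, 17 were lower and 1, Gzma (0.76), was higher, where 19.4% of all genes were lower and 23.0% higher. The summed signal of the 23 was 4662 to 5373 on the RAG-/- arrays and 2069 to 2581 on the DNTLX3+ arrays. Of the 23, 18 were above the array medians in the RAG-/- group against 5 in the DNTLX3+ group. Ncr1, an NK receptor, fell by 2.98 and Klrb1c, the NK1.1 antigen, fell by 2.80, both from means above the array medians to means below them. Of 25 myeloid and dendritic markers 21 fell, with a summed signal of 9454 to 11276 against 1311 to 1413. Of 16 thymic epithelial markers 9 fell, with 8708 to 15887 against 1794 to 2134. The part of such cells in the falls of Gimap3 and Gimap4 was not tested.

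Endothelial and B-lineage cells also carry Gimap transcripts. None of 15 endothelial markers was called, with a summed signal of 1467 to 1648 and 1604 to 1653, and 9 of the 15 were below the array medians in both groups. None of 12 B-lineage markers was called (964 to 1017 and 808 to 874), with 8 of the 12 below the medians. On the adjusted p alone, 2 endothelial markers were higher, and 3 B-lineage markers were lower and 3 higher (limma). Of all genes, 19.4% were lower and 23.0% higher by that measure. Of 13 markers of mature T cells, 2 fell (Ms4a4b and Ctla4, the latter not called at equal medians and interquartile ranges, where it was -0.93) and Cd8b1 rose, with a summed signal of 4356 to 4562 and 3113 to 3449. Of 21 genes listed as DN thymocyte markers, 20 were above the array medians on the RAG-/- arrays and 17 on the DNTLX3+ arrays. The list also holds Cd4 and Cd8a, which mark cells that the protocol depletes, and Rag2. These counts therefore do not check the labelled cell type. Of the 21 genes 5 fell (Ptcra, Il2ra, Dtx1, Cd7 and Cd44), 16 were not called and none was higher. On the limma adjusted p alone, 14 were lower and 1 higher. At equal medians and interquartile ranges Ptcra (-0.66), Il2ra (-0.47) and Dtx1 (-0.75) were not called, nor was Ptcra after cyclic loess (-0.97). The summed signal of the 21 was 38706 to 40301 on the RAG-/- arrays and 25313 to 31575 on the DNTLX3+ arrays.

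The gene lists tied to Gimap proteins were chosen by name, and some share genes. With limma treat no gene of the BCL2, autophagy, quiescence or factor lists was called, and of the immune GTPases only Mx2 and Iigp1 were. Of 13 measured BCL2 family genes, studied with Gimap3, Gimap4 and Gimap5, 1 fell, 1 rose and 11 were not called, with a median of 0.13. Bcl2, which blocks cell death, was at 9.71, 9.48 and 9.71 on the RAG-/- arrays and at 8.16, 8.92 and 8.73 on the DNTLX3+ arrays, 2.04-fold lower. Its call was lost after quantile normalization again (-0.87), cyclic loess (-0.88), equal medians and interquartile ranges (-0.68) and array weights (-0.91). It was also lost without DNTLX3+ replicate 1 (-0.81) or without RAG-/- replicate 1 or 3 (-0.99 each). Bbc3, which promotes death, rose by 1.12, or 0.99 without RAG-/- replicate 2, where it was not called. Bcl2l1 and Bcl2l11, a protector and a killer, were at -0.54 and -0.84, past the adjusted p only, and Bax had no probe set of its own symbol and was not analysed here.

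Of 19 genes of autophagy and the lysosome, 2 fell, none rose and 17 were not called, with a median of -0.45. Lamp2, a lysosomal membrane protein, was at 9.22, 8.98 and 9.25 on the RAG-/- arrays and 7.16, 7.99 and 7.56 on the DNTLX3+ arrays, 2.99-fold lower. Ctsd, a lysosomal protease also abundant in macrophages, was 2.45-fold lower, a call lost at equal medians and interquartile ranges (-0.68). Of 25 myeloid markers 21 fell too, and the part of such cells in the fall of Ctsd was not tested. Gabarapl2, the partner of Gimap6, was at -0.46 ± 0.14 (SE; limma adjusted p = 0.0264), past the adjusted p only. Gimap6 itself was at 0.12.

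None of 14 genes of GSK3, FOXO, AKT and mTOR signalling, which has been linked to Gimap5, was called. On the limma adjusted p alone 3 were lower and 1 higher, where 19.4% of all genes were lower and 23.0% higher. Gsk3b, a kinase studied with Gimap5, was at -0.49 (95% interval -0.86 to -0.13). Foxo1, Foxo3 and Foxo4, factors of lymphocyte quiescence, were at -0.31, -0.18 and 0.16, with limma adjusted p of 0.155, 0.334 and 0.333. The median of the list was -0.17.

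Of 28 quiescence and recirculation genes of naive T cells, the cells in which Gimap genes are best known, 8 fell, none rose and 20 were not called, with a median of -0.41. Ms4a4c and Ms4a4b, membrane proteins of lymphocytes, stood at -1.52 and -1.43. The mean of Ms4a4c was below the array medians in both groups (5.35 and 3.83), and that of Ms4a4b in the DNTLX3+ group (5.84). Btg1, an antiproliferative factor, was 2.46-fold lower and Itga4, an integrin chain, 2.19-fold lower. Both calls were lost at equal medians and interquartile ranges (-0.68 and -0.49), and Itga4 was not called with array weights (-0.97) or without DNTLX3+ replicate 1 (-0.89) either. Ms4a4b is also known from NK cells, of whose 23 markers 14 fell, and the part of such cells in its fall was not tested.

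Of 25 transcription factors studied at the locus or found there in T cells and T-ALL, 1 fell, 1 rose and 23 were not called, with a median of -0.23. Tlx3, named in the design, was at 5.40, 5.42 and 5.52 on the RAG-/- arrays and 7.09, 6.52 and 6.45 on the DNTLX3+ arrays. All DNTLX3+ arrays were higher than all RAG-/- arrays. The array value need not measure the viral insert, since the sources used here do not say from which species it comes. Tcf4, an E protein, fell by 1.01, a call lost after quantile normalization again (-0.81), cyclic loess (-0.83), equal medians and interquartile ranges (-0.75), array weights (-0.99) and without DNTLX3+ replicate 1 (-0.96). Rag2 stood at -0.30 (limma adjusted p = 0.124), and probe positions against the deleted exon sequence were not used here, so it does not check the labels.

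The family was set beside other immune GTPases and genes that act with them. Falls were called for 11 of the 18 measured genes and rises for none, and the median was -1.13. The 4 largest falls were those of Mx2, an antiviral dynamin-like GTPase (-2.37), Iigp1, an interferon-induced GTPase (-2.24), and the guanylate-binding proteins Gbp7 (3.07-fold lower) and Gbp5 (-1.54). On the RAG-/- arrays Mx2 was at 7.05, 7.05 and 6.36 and Iigp1 at 8.13, 8.06 and 7.15, lowest in replicate 3 as most Gimap genes were. Whether the share of called genes differs between these families was not tested.

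**Figure D4:**
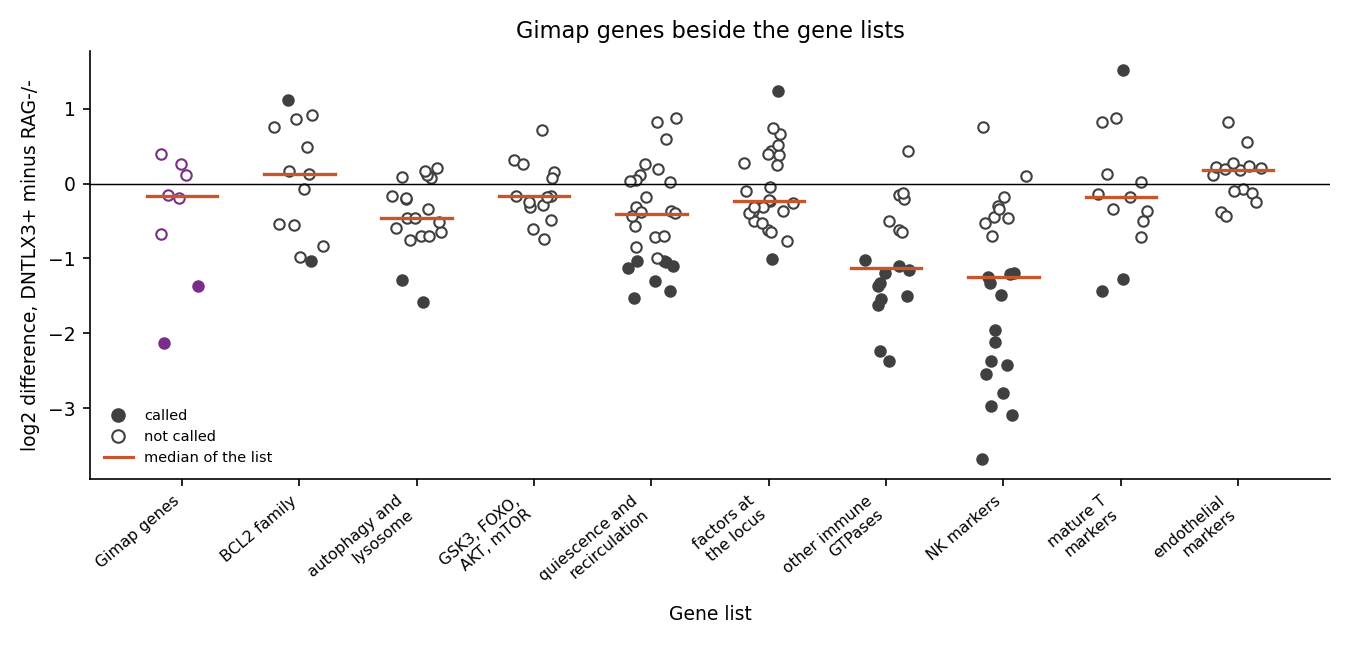
Log2 differences (vertical axis) of the Gimap genes (purple) and of the genes of 6 related lists and 3 marker lists (horizontal axis), 1 circle per gene, filled where called, with an orange line at each median; horizontal scatter has no meaning. The Gimap genes centre at -0.17 with Gimap3 and Gimap4 apart, while the other immune GTPases and the NK markers centre at -1.13 and -1.25.

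The genes nearest to the family in profile were sought among 11631 genes whose higher group mean was above the median of probe sets, by the root mean square distance between profiles centred on their own mean over the 6 arrays. The mean of the 8 members was 7.25, 7.19 and 7.04 on the RAG-/- arrays and 6.54, 6.77 and 6.77 on the DNTLX3+ arrays. Cep83 (0.02 log2 units), Osbpl9 (0.03), Snx6 (0.03), Parg (0.03) and Sdhaf2 (0.03) were nearest, with differences of -0.50 to -0.44. That mean had a difference of -0.47 and takes in the falls of Gimap3 and Gimap4, whereas the other 6 members lay between -0.68 and 0.40, so it is no typical member's profile. For the members that fell, picked out after their values were seen, the nearest gene to Gimap3 was Sat1 (0.10), at 8.99, 8.91 and 8.86 against 6.12, 6.96 and 7.20, and the nearest to Gimap4 was Ogdhl (0.06), at 8.42, 8.43 and 8.40 against 7.07, 7.07 and 7.04.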

How the data were processed

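Total RNA was labelled with biotin and hybridised to 6 one-colour Affymetrix arrays, 3 per group. The authors deposited log2 values per probe set, which the submitters' processing notes credit to RMA, affy and R 2.9.0. RMA corrects background, quantile-normalizes the arrays and summarizes probes. Array-wide differences nevertheless remained in the tested values. Interquartile ranges were 3.09 to 3.18 log2 units on the RAG-/- arrays and 2.47 to 2.85 on the DNTLX3+ arrays. Of 34760 probe sets, 6568 numbered before the genome-ordered ones were taken as controls. The other 28192 were tested with limma 3.58.1 in R 4.3.3 (lmFit and eBayes, two-sided, no covariate). Genes were named from the platform annotation, 19937 by their brightest single-symbol probe set. All 8 members were found in the RefSeq gene table and promoter table of GRCm38.p6, used for order, strand and sequence. A planned comparison of the proteins was not made here. Group and replicate came from sample titles. Same-numbered arrays were not shown to be paired. Precision is limited by the number of arrays: in log2 units, the SD over 3 arrays had a median of 0.11 for RAG-/- and 0.21 for DNTLX3+. Array medians, under which a signal may be background, were 6.22 to 6.35, and a fold, 2 to the power of the size of the difference, is given only where both group means lay above them. Summed signals are sums of unlogged values. Neighbours are the 10 nearest measured genes per side. Named are all members, called genes of each list up to 4 per direction, genes tied directly to a Gimap protein, and the 5 nearest profiles. Any other gene was named with its values in view. The members and lists were chosen with earlier results of these data known. The pipeline was tested on simulated data. Plots were drawn with matplotlib 3.10.9.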

Additional observations from a re-analysis of the deposited data

How the results depend on the processing

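The calls of Gimap3 and Gimap4 held in 16 of the 17 alternatives that gave a value, with differences of -2.39 to -1.81 and -1.55 to -1.32. The exception was limma treat (-2.14 and -1.37, adjusted p 0.0784 and 0.374), which left 0 members lower. Not all 17 were able to end a call. No minimum difference only loosens the rule, and averaging a gene's probe sets changes no member's value, since each has 1. Settings that change only the spread, the probe sets kept or the rule left the differences at -2.14 and -1.37. Leaving out probe sets under the median level also gave 0, since both genes are among those removed. With no minimum difference Gimap7 (0.40) was called higher, 1 member. Leaving out each array in turn gave 2 to 3 members lower, none higher, and -1.02 to -0.44 for Gimap8. Gimap9 changed sign after quantile normalization again (0.044), cyclic loess (0.0169) and equal medians and interquartile ranges (0.16), and Gimap1 after the last (0.14). The cause of these changes was not tested. With the replicate number as a block (replicate block), Gimap3 and Gimap4 were still called, and 1013 genes were lower and 289 higher. No call of a member changed there, though the limma adjusted p of Gimap7 rose over 0.05 (0.0673) and that of Gimap8 fell under it (0.0340). Correlations of same-numbered arrays' deviations were -0.11, 0.06 and -0.00, so the numbers alone do not pair the samples. Over all genes, limma treat called 122 lower and 7 higher, and no minimum difference gave 3858 and 4595. Equal medians and interquartile ranges gave 799 lower and 470 higher, and leaving out probe sets under the median gave 820 and 147. BCL2 family genes called lower were 0 (quantile again, cyclic loess, equal medians and ranges, array weights, treat), 2 (equal medians), 5 (no minimum) and 0 to 2 leaving out arrays. Those called higher were 3 (quantile again, cyclic loess, equal medians and ranges), 0 (treat), 4 (no minimum) and 0 to 1 leaving out arrays. In the order equal medians and ranges, treat and no minimum, autophagy genes lower were 1, 0 and 10, quiescence genes lower 4, 0 and 15, and immune GTPases lower 7, 2 and 14. Quiescence genes higher were 1 after quantile again, cyclic loess or equal medians and ranges, 3 with no minimum and 0 to 1 leaving out arrays. Factors at the locus lower were 0 (quantile again, cyclic loess, equal medians and ranges, array weights, treat), 8 (no minimum) and 0 to 1 leaving out arrays, and higher 2 (equal medians and ranges), 0 (probe sets under the median left out, treat) and 6 (no minimum). GSK3 and FOXO genes lower were 3 with no minimum, and higher 1 there and at equal medians and ranges, as for immune GTPases higher. Signals near background limit Gimap3, Gimap4, Gimap5, Gimap7 and Gimap8, each below the array medians in at least 1 group.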
